A study of Mus musculus with 72 samples.

Results

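Genes of the unfolded protein response and the integrated stress response were followed in interfollicular epidermis of the mouse, the epidermis between the hair follicles, through 72 libraries. The 10 genes are Hspa5, Hsp90b1, Calr, Sdf2l1, Dnajb9, Pdia4, Pdia6, Xbp1, Atf4 and Ddit3. They were chosen by name, with earlier results of these data known, so their counts beside shares of all genes are a description. Mapped by symbol to the Ensembl identifiers of the count files, they make up 10 of the 46078 genes counted. All 10 passed the filter on low counts, which left 18515 genes for testing. The series asks how the daily program of the epidermis depends on clocks in other tissues, in mice kept under light and dark.

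All mice were C57BL/6 females of 8 weeks, and backskin epidermis was separated with dispase and frozen as pellets of cells. RE mice carry Bmal1-stopFL together with K14-Cre, which restores Bmal1 (gene symbol Arntl), a core clock transcription factor, where the keratin 14 promoter is active. KO mice carry Bmal1-stopFL, the silenced allele, without K14-Cre. WT mice carry K14-Cre alone. KO therefore differs from WT in the allele and in Cre, and these cannot be told apart. Keratin 14 marks basal keratinocytes and other stratified epithelia, and other tissues of RE mice keep the silenced allele. Each genotype was sampled at 6 time points with 4 mice at each, which makes 18 groups of 4 libraries. The time points have an order and no clock hours.

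Proteins that enter the endoplasmic reticulum (ER) are folded there by chaperones and disulfide isomerases, and unfolded protein activates sensors in its membrane. IRE1 lets cells splice Xbp1 mRNA, ATF6 is cut to release a transcription factor, and PERK phosphorylates eIF2alpha, which favours translation of ATF4. PERK shares that last step with other kinases that respond to amino acid shortage, double-stranded RNA or heme, and the common path is called the integrated stress response. Keratinocytes make large amounts of secreted and membrane protein and lipid as they differentiate. Gene counts show the amount of mRNA and neither Xbp1 splicing nor phosphorylation of eIF2alpha.

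The stretches before the start sites show which of the genes share the ER stress response element (ERSE), the site at which ATF6 is known to act with the factor NF-Y. The 250 bases before the RefSeq start (build GRCm38.p6) were searched on both strands for ERSE, spelled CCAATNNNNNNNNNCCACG. It lay in 4 of the 10 genes, Hspa5, Hsp90b1, Calr and Pdia6, and in 0.113% of all 32851 windows of that length. Hsp90b1 held 2 copies. The E-box CACGTG, the motif that Bmal1 and Clock are known to bind, lay in Calr and Dnajb9 and in 6.02% of windows. No match was found in the 10 genes to ERSE-II (ATTGGNCCACG, 0.0304% of windows), to UPRE (TGACGTGG, 0.563%) or to CARE (TGATGNAA, 3.45%), the amino acid response motif. Sdf2l1, Pdia4, Xbp1, Atf4 and Ddit3 held none of the 5 motifs in this window. The 5 windows with a match are printed in the direction of the gene, from base -250 to base -1, with the fixed letters of ERSE and the E-box in capitals. They lie at chr2:34771840-34772089 (plus strand) for Hspa5, chr10:86705445-86705694 (minus) for Hsp90b1, chr8:84846932-84847181 (minus) for Calr, chr12:17266339-17266588 (plus) for Pdia6 and chr12:44210069-44210318 (minus) for Dnajb9.
Hspa5: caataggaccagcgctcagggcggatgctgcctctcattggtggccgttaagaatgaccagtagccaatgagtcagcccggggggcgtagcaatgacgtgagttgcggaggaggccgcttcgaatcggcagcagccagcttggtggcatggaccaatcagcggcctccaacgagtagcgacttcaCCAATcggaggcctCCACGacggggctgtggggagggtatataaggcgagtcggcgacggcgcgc
Hsp90b1: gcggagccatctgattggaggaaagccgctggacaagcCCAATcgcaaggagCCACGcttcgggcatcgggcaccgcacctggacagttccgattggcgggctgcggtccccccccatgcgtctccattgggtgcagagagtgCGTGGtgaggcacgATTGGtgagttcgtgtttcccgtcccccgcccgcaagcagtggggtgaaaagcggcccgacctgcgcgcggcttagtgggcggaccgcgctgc
Calr: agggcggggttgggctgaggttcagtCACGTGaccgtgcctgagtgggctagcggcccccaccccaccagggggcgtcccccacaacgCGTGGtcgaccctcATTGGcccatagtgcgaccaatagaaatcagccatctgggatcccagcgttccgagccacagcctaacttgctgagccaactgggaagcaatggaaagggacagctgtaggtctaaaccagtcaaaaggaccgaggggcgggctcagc
Pdia6: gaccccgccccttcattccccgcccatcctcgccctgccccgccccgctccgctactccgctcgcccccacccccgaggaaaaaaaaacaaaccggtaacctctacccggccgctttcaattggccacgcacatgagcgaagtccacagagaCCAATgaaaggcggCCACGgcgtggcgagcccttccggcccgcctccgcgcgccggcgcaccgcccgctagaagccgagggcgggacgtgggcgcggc
Dnajb9: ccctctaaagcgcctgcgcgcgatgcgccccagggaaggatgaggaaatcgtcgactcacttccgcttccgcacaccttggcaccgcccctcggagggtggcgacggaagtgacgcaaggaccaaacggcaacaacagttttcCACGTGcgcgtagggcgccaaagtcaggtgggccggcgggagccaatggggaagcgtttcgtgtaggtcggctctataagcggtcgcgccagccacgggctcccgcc

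In Hspa5 the element ended 47 bases before the start, in Pdia6 80 bases, in Calr 144 bases and in Hsp90b1 89 and 194 bases. The E-box of Dnajb9 ended 102 bases before the start and that of Calr 219 bases. These starts are those of RefSeq, while the gene limits printed below are from GENCODE and differ from them. By the GENCODE limits the window of Dnajb9 and the element of Hspa5 lie inside the gene. A match describes the letters and not the binding of a factor.

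Depth ran from 2.96e+07 to 4.95e+07 reads in genes per library. Arntl lay between 30.7 and 112 CPM (counts scaled to library size) in RE, at 34.8 CPM or less in KO, and between 22.9 and 156 CPM in WT. By the log2 ratio of 2 mitochondrial genes, mt-Co1 over mt-Nd1, the libraries fell into 2 sets, from -3.75 to -3.02 in 40 libraries and from -6.02 to -5.09 in 32. The first set holds time points 1 to 3 of RE and KO and 1 to 4 of WT, so WT time point 4 was tested against neither RE nor KO at that time. A change between the sets and a change over the day cannot be told apart. Another 5 libraries stood apart. The library labelled KO replicate 1 of time point 3 had 253 CPM of the clock gene Nr1d1, against 2.70 to 14.4 CPM in the other 23 KO libraries. On a scale over 50 genes that is 1 for RE and 0 for WT, the libraries labelled RE replicate 2 and WT replicate 2 of time point 3 stood at 0.0230 and 0.972, against 0.620 to 1.48 in other RE libraries and -0.289 to 0.321 in other WT libraries. RE replicate 3 and WT replicate 4 of time point 5 held 343 and 274 CPM of Krt14, against 2514 to 6257 CPM in the other 70. Rises at time point 1, rhythms and mean differences were also counted without these 5. The 5 basal keratinocyte markers summed to 13978 to 23805 CPM and the 6 fibroblast markers to 2.63 to 29.6 CPM outside the 2 libraries low in Krt14. In bulk RNA, fewer cells of a type and less RNA per cell cannot be told apart.

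Per kilobase of exon, the mean levels over 72 libraries ran from 214 CPM per kb for Atf4 to 7.09 for Sdf2l1. Between them stood Hspa5 at 146, Hsp90b1 at 112, Calr at 107, Pdia6 at 45.3, Pdia4 at 40.9, Xbp1 at 35.4, Dnajb9 at 19.7 and Ddit3 at 11.6. Hspa5, Hsp90b1, Calr and Atf4 were among the most abundant mRNAs, at percentiles 99.2, 98.6, 97.5 and 98.8 of tested genes by mean CPM, while Sdf2l1 was at 45.8. The lowest count of any member in a library was 159 reads, for Sdf2l1. At such counts the spread between mice can lie under the counting error: the 4 WT libraries of time point 3 had 211 to 213 reads of Sdf2l1 and a level of 5.73 ± 0.113 CPM (SD, n = 4).

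**Figure D1:**
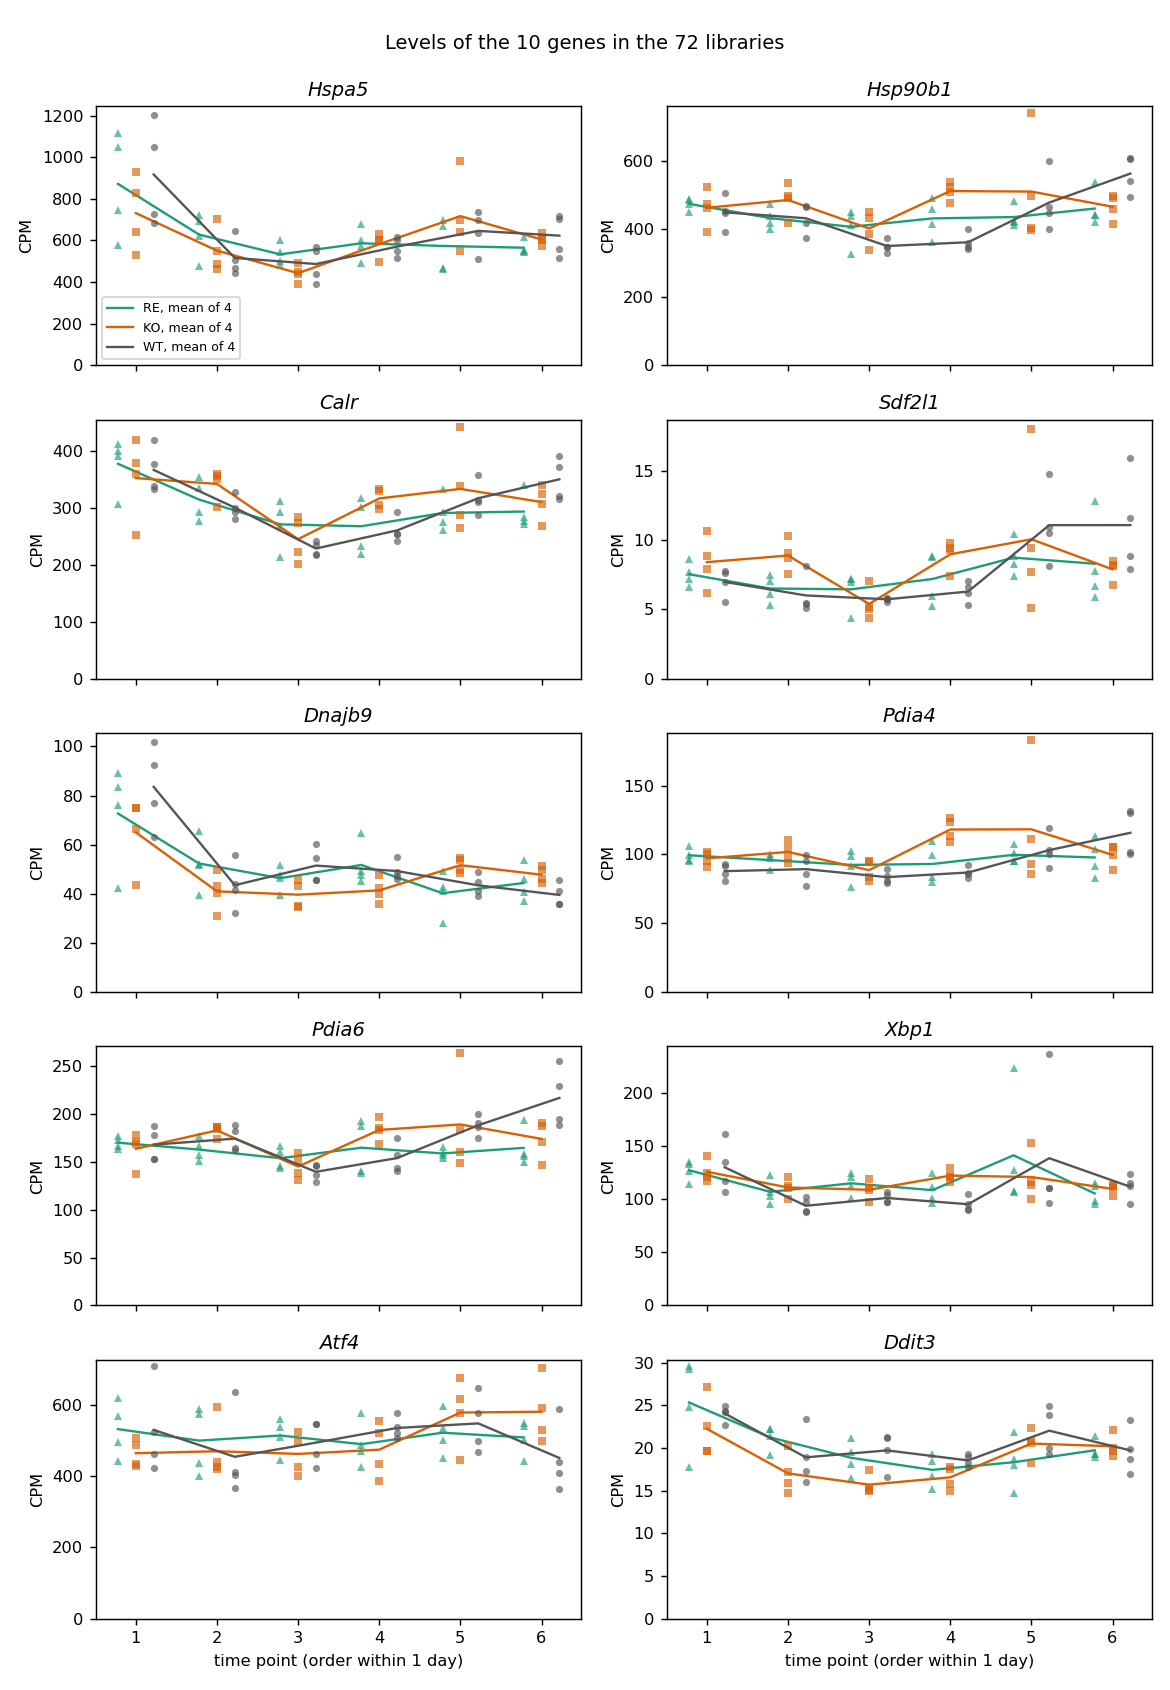
CPM of the 10 genes (vertical axes, starting at 0) at time points 1 to 6 (horizontal axis) in RE (triangles), KO (squares) and WT (circles). Each point is 1 library, lines join means of 4, and genotypes are set side by side at each time. Hspa5 and Dnajb9 have their highest means at time point 1 in all 3 genotypes, and the single high KO points of time point 5 belong to replicate 1.

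Hspa5 (BiP; ENSMUSG00000026864, chromosome 2, 34771970 to 34777547, plus strand), the main ER chaperone and the protein that holds the sensors inactive, had its highest mean at time point 1 in each genotype, at 872 ± 253 CPM in RE, 731 ± 179 CPM in KO and 917 ± 251 CPM in WT (SD, n = 4). In KO the mean of time point 5 was close behind, at 717 CPM, with 1 library at 980 CPM. The 4 RE libraries of time point 1 had 1114, 1048, 744 and 580 CPM, against a lowest, median and highest of 477, 574 and 723 CPM in the 8 RE libraries of time points 2 and 3. The KO libraries of time point 1 had 928, 827, 640 and 531 CPM, against 391, 476 and 705 CPM at time points 2 and 3. The WT libraries had 1203, 1051, 729 and 684 CPM, against 392, 486 and 647 CPM. In WT the groups did not overlap, while in RE and KO the lowest libraries of time point 1 lay within the range of the later ones. Time point 1 against the mean of 2 and 3 gave a log2 difference of 0.59 ± 0.15 in RE, 0.57 ± 0.15 in KO and 0.87 ± 0.15 in WT (SE), or 1.51-fold, 1.48-fold and 1.83-fold. This comparison was chosen after the values were seen, because these time points lie in the same set in all genotypes. The edgeR adjusted p were 0.0106 in RE, 0.0184 in KO and 1.97e-05 in WT.

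Dnajb9 (ERdj4; ENSMUSG00000014905, chromosome 12, 44205559 to 44210326, minus strand), a co-chaperone that recruits BiP to IRE1 and to misfolded protein, had the same high point. At time point 1 it stood at 89.0, 83.4, 76.0 and 42.4 CPM in RE, against 39.6, 49.6 and 65.8 CPM as lowest, median and highest of time points 2 and 3. In KO it stood at 75.1, 75.0, 66.4 and 43.6 CPM, against 31.0, 41.6 and 49.9 CPM. In WT it stood at 102, 92.6, 76.9 and 62.9 CPM, against 32.3, 45.7 and 60.2 CPM. All 4 WT libraries and 3 of 4 libraries of RE and of KO lay above every later one of their genotype. The log2 differences were 0.56 ± 0.15 in RE, 0.69 ± 0.15 in KO and 0.82 ± 0.15 in WT (SE, edgeR adjusted p = 0.0128, 0.00244 and 3.22e-05).

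Ddit3 (CHOP; ENSMUSG00000025408, chromosome 10, 127290774 to 127296288, plus strand), a transcription factor that promotes cell death under lasting stress, was also higher at time point 1. It had 29.6, 29.3, 24.8 and 17.7 CPM in RE, against 16.5, 20.4 and 22.2 CPM as lowest, median and highest of time points 2 and 3. It had 27.2, 22.5, 19.7 and 19.6 CPM in KO, against 14.7, 15.7 and 20.3 CPM. It had 24.9, 24.4, 24.2 and 22.8 CPM in WT, against 16.0, 19.4 and 23.4 CPM. Ranges overlapped in each genotype, and the log2 differences were 0.34 ± 0.10 in RE, 0.44 ± 0.10 in KO and 0.32 ± 0.10 in WT (SE, edgeR adjusted p = 0.0334, 0.00518 and 0.0176). Ddit3 overlaps Mars in the annotation, and since the strand setting of the counts is not given in the sources used here, its reads are uncertain to that extent.

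Counted over the 10 genes, 4 rose at time point 1 in RE, 3 in KO and 5 in WT, beside 4.85%, 3.27% and 13.8% of all tested genes called higher. As this contrast was chosen after the values of these genes were seen, the counts beside those shares are a description. The adjusted p of the contrast do not allow for that choice. Hspa5, Dnajb9 and Ddit3 passed in each genotype. Calr also passed in RE (0.37 ± 0.11, adjusted p = 0.0326) and WT (0.48 ± 0.11, adjusted p = 0.000856), and Xbp1 in WT (0.42 ± 0.14, adjusted p = 0.0204; SE). Pdia4, Pdia6 and Hsp90b1 stayed between 0.01 and 0.21 in all genotypes, without a call. No gene was called lower, beside 1.36% of all genes in RE, 1.95% in KO and 11.7% in WT. The difference of this contrast between genotypes was called by edgeR for 0 of 10 genes in each pair, beside 0.0108% of genes for KO minus WT, 0% for RE minus WT and 0% for RE minus KO, and 0 had an unadjusted p under 0.05. For Hspa5 it was -0.28 ± 0.22 for RE minus WT and -0.31 ± 0.22 for KO minus WT (SE), with adjusted p of 0.998 and 0.847 by edgeR.

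Single libraries decided some of the calls, while the differences stayed positive. Without replicate 1 or without replicate 2 of RE time point 1, 0 calls were made in RE, with log2 differences of 0.45 and 0.49 for Hspa5, 0.49 and 0.45 for Dnajb9, 0.26 and 0.26 for Ddit3, and 0.35 and 0.34 for Calr. Without replicate 4 of RE time point 2 or replicate 2 of RE time point 3, 2 were made. Without replicate 1 of time point 1, 1 call was made in KO (Dnajb9), where Hspa5 was at 0.43 and Ddit3 at 0.34. Without replicate 1 of time point 1, 3 were made in WT (Hspa5, Dnajb9 and Calr), where Ddit3 was at 0.31 (edgeR adjusted p = 0.0563) and Xbp1 at 0.30 (0.186). Calls of single genes were lost in further fits. Hspa5 in KO was lost without replicate 3 of time point 1 (0.50, edgeR adjusted p = 0.12). Calr in RE was lost without replicate 3 of time point 1 or 3, or replicate 2 of time point 2. Ddit3 in RE was lost without replicate 1 of time point 3, and Xbp1 in WT without replicate 2 of time point 1. Without the 5 libraries that stood apart, 3 genes were called in RE (Hspa5, Dnajb9 and Ddit3), 3 in KO and 5 in WT.

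**Figure D2:**
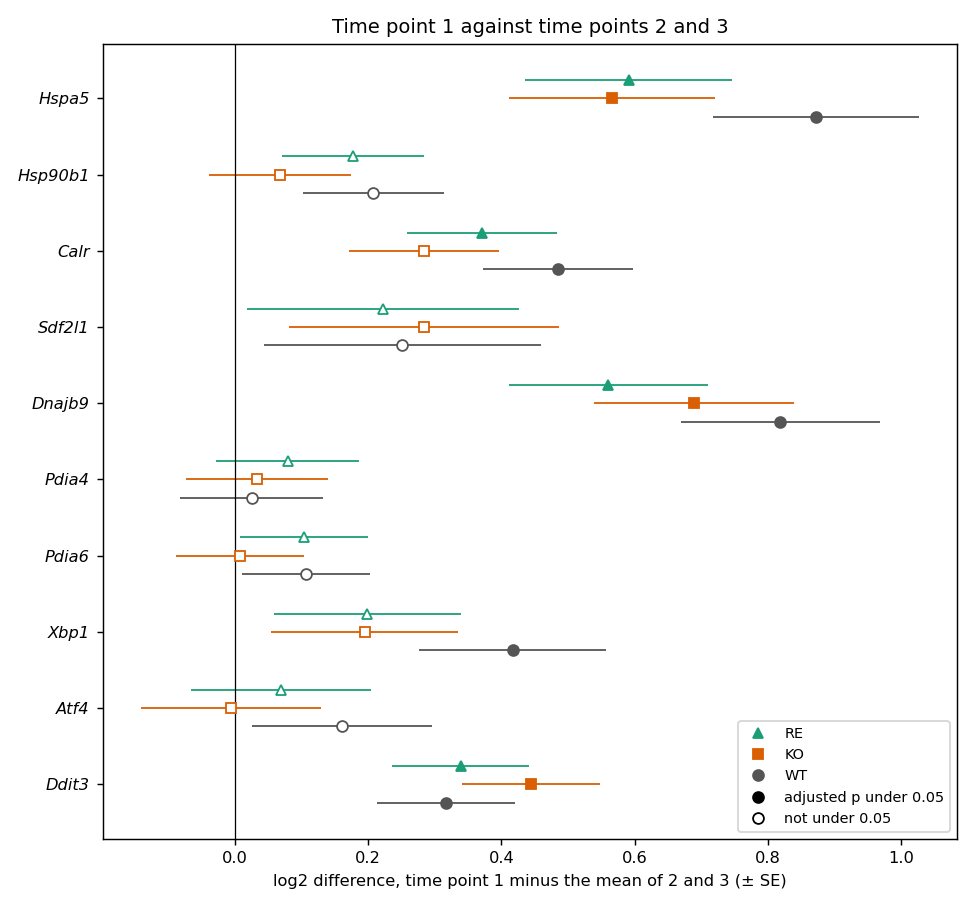
Log2 difference of time point 1 minus the mean of time points 2 and 3 (horizontal axis) for the 10 genes in RE, KO and WT, with bars of 1 SE from the edgeR fit. Filled symbols have an adjusted p under 0.05, which does not allow for the choice of this contrast after the values were seen. Hspa5, Dnajb9 and Ddit3 are filled in each genotype, while Pdia4 and Pdia6 lie between 0.01 and 0.11.

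Replicate 4 of time point 1 was the lowest of its 4 mice for Hspa5, Dnajb9 and Ddit3 in all 3 genotypes. Sesn2, a stress-induced regulator of nutrient signalling and a target of ATF4, followed it, with 310, 258, 207 and 46.6 CPM in RE and 255, 250, 156 and 47.4 CPM in KO at time point 1, where the lowest value was that of replicate 4. WT had 285, 279, 239 and 183 CPM, again lowest in replicate 4. At time points 2 and 3 the lowest, median and highest of Sesn2 were 46.1, 49.6 and 103 CPM in RE. They were 42.0, 49.2 and 144 CPM in KO and 37.0, 49.4 and 192 CPM in WT, so the ranges overlapped in each genotype. Sesn2 had the smallest p of the other pathway genes in each genotype, with log2 differences of 1.77 ± 0.29 in RE, 1.54 ± 0.29 in KO and 1.92 ± 0.29 in WT (SE, edgeR adjusted p = 3.87e-05, 0.000487 and 9.62e-07).

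Markers of some other cells were higher at time point 1. The 5 Langerhans cell markers (Cd207, Cd74, H2-Aa, H2-Ab1 and H2-Eb1) summed to between 129 and 939 CPM (median 532 CPM) in the 12 libraries of time point 1, against between 78.2 and 507 CPM (median 232 CPM) at time points 2 and 3. None of them was at 0. Replicate 4 of time point 1 was lowest in each genotype here too, with 133 CPM in RE, 129 CPM in KO and 424 CPM in WT. The 5 melanocyte markers (Dct, Tyr, Tyrp1, Pmel and Mlana) summed to a median of 21.7 CPM at time point 1, against 8.16 CPM over the later pair, and the defining markers Tyr and Mlana had medians of 0.0729 and 0.114 CPM over all libraries. Dct had 10.1 against 1.69 CPM and Pmel 7.45 against 6.22 CPM. Median sums of T cell and fibroblast markers were 34.4 and 11.3 CPM at time point 1, against 35.8 and 11.3 CPM. Those of endothelial and sebocyte markers were 3.61 and 62.9 CPM, against 2.49 and 50.8 CPM. The 5 basal keratinocyte markers had medians of 17828 CPM in RE, 19624 CPM in KO and 19400 CPM in WT at time point 1, against 19373, 19394 and 19914 CPM at time points 2 and 3. The part of these cells in the values of Hspa5, Dnajb9 and Ddit3 was not tested.

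In WT, Hsp90b1, Pdia4 and Pdia6 had their lowest mean at time point 3 and their highest at time point 6. Hsp90b1 (GRP94; ENSMUSG00000020048, chromosome 10, 86690209 to 86705509, minus strand), an ER chaperone of integrins and Toll-like receptors, averaged 449 ± 46.1, 432 ± 43.9, 350 ± 18.4, 361 ± 26.3, 478 ± 84.8 and 563 ± 55.7 CPM at time points 1 to 6 in WT (SD, n = 4). The 4 WT libraries of time point 6 lay between 493 and 609 CPM, above all 8 of time points 3 and 4, which lay between 330 and 399 CPM. In RE the means stayed between 407 and 474 CPM and in KO between 402 and 512 CPM. Without the libraries that stood apart, the mean of Hsp90b1 was 433 ± 20.2 CPM in RE and 422 ± 34.6 CPM in KO at time point 3, and 438 ± 32.9 CPM in WT at time point 5 (SD, n = 3). Time points 3 and 6 belong to different sets in every genotype.

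A cosine fitted to each genotype, whose period spans all 6 time points, puts this in 1 number, the log2 range between fitted peak and trough. In WT 7 of the 10 genes had a daily rhythm at an edgeR adjusted p under 0.05, beside 34.2% of all genes, in KO 1 of 10 beside 7.7%, and in RE 2 of 10 beside 13.5%. The median range of the 10 genes was 0.30 in RE, 0.33 in KO and 0.51 in WT, while that of all genes was 0.27 in RE, 0.22 in KO and 0.35 in WT. The count in KO is thus near its background. Without the 5 libraries that stood apart, the counts were 2 in RE, 1 in KO and 7 in WT.

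Hsp90b1 ranged 0.18 ± 0.10 in RE, 0.17 ± 0.10 in KO and 0.62 ± 0.10 in WT, with a peak at 6.16 on the scale of time points (SE, edgeR adjusted p = 0.424, 0.643 and 2.09e-05). Calr (calreticulin; ENSMUSG00000003814, chromosome 8, 84841850 to 84846934, minus strand), which folds glycoproteins and binds calcium, ranged 0.41 ± 0.12 in RE, 0.28 ± 0.12 in KO and 0.65 ± 0.12 in WT (adjusted p = 0.0258, 0.325 and 7.51e-05). Its WT means were lowest at time point 3, at 229 ± 11.9 CPM (224 ± 9.71 CPM without replicate 2), and highest at time point 1, at 367 ± 40.2 CPM (SD, n = 4). The RE call for Calr was lost without any 1 of 5 libraries, replicates 1, 2 and 3 of time point 1 and replicates 1 and 4 of time point 4, with an adjusted p of up to 0.092.

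Hspa5 ranged 0.47 ± 0.17 in RE, 0.55 ± 0.17 in KO and 0.64 ± 0.17 in WT (SE, edgeR adjusted p = 0.11, 0.116 and 0.00932). When the model held the set as well, the WT calls of Hspa5 (1.10, adjusted p = 0.00069), Hsp90b1 (0.44, 0.00656) and Calr (0.70, 0.000436) were also made. Dnajb9 and Xbp1 were called in WT by that model too. In KO it called Hspa5, Dnajb9 and Ddit3, and in RE 0 genes, so the Hspa5 call was not limited to WT. Hspa5, Hsp90b1 and Calr changed among time points of the same set in WT as well, with adjusted p of 0.000327, 0.0258 and 0.000679.

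The disulfide isomerases Pdia4 (ENSMUSG00000025823, chromosome 6, 47796141 to 47813430, minus strand) and Pdia6 (ENSMUSG00000020571, chromosome 12, 17266545 to 17284770, plus strand), which form and rearrange disulfide bonds, ranged 0.41 ± 0.11 and 0.50 ± 0.10 in WT (SE, edgeR adjusted p = 0.00593 and 0.000278). Pdia6 had 150, 156, 158 and 193 CPM in RE at time point 6, 147, 171, 188 and 190 CPM in KO, and 188, 195, 229 and 255 CPM in WT. The WT libraries reached higher and the ranges overlapped. Pdia6 overlaps the end of Atp6v1c2 in the annotation, with the same limit on strand as Ddit3. In RE, Pdia4 ranged 0.11 ± 0.11 and Pdia6 0.08 ± 0.10, and in KO 0.30 ± 0.11 and 0.17 ± 0.10 (SE), without a call.

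Sdf2l1 (ENSMUSG00000022769, chromosome 16, 17130138 to 17132383, minus strand), a partner of the BiP co-chaperones, ranged 0.46 ± 0.20 in RE, 0.39 ± 0.20 in KO and 1.08 ± 0.20 in WT (SE, edgeR adjusted p = 0.246, 0.503 and 0.000101). Its WT libraries lay at 5.57 to 5.82, 5.29 to 7.04, 8.14 to 14.8 and 7.88 to 16.0 CPM at time points 3 to 6. The 14.8 CPM is that of WT replicate 4, low in Krt14, and the mean of WT time point 5 was 11.1 ± 2.74 CPM with it (SD, n = 4) and 9.85 ± 1.5 CPM without it (SD, n = 3). The step in WT lay between time points 4 and 5, which is also where the WT libraries change set. With the set as a term, the WT calls of Sdf2l1 (0.67, adjusted p = 0.223), Pdia4 (0.20, 0.508) and Pdia6 (0.29, 0.0758) were lost.

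**Figure D3:**
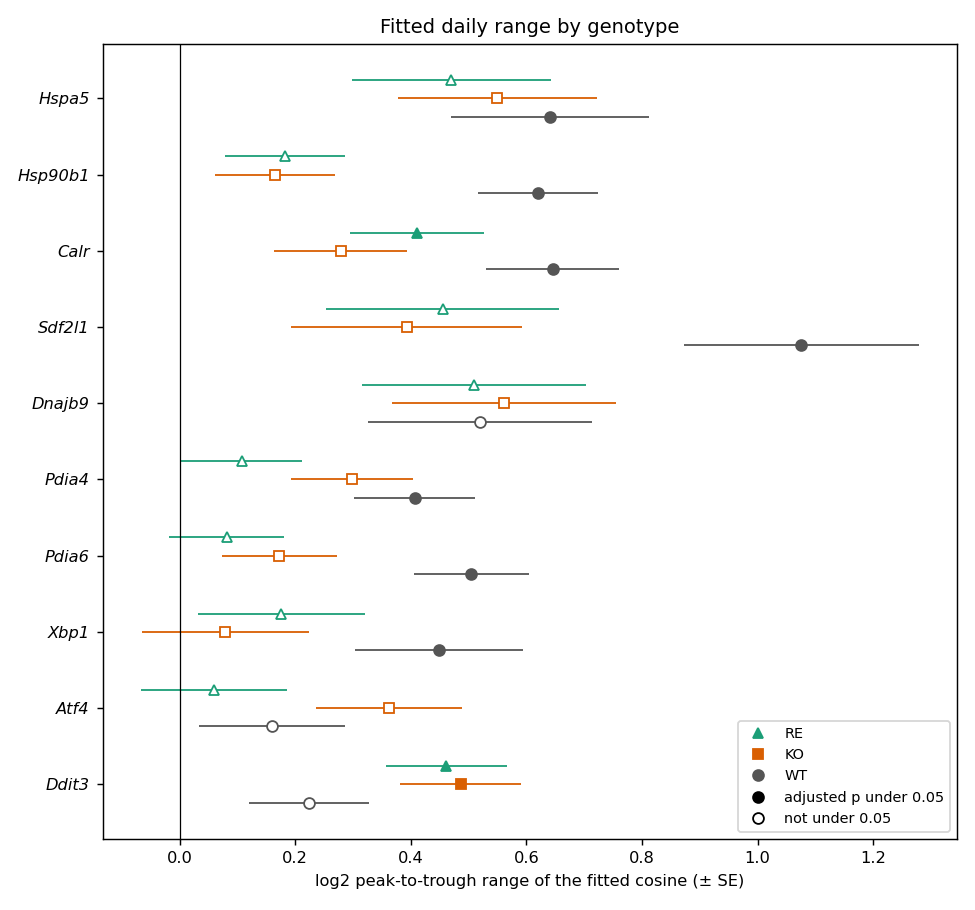
Fitted log2 range over the day (horizontal axis) of the 10 genes in RE, KO and WT, with bars of 1 SE from the edgeR fit and filled symbols for an adjusted p under 0.05. WT has 7 filled symbols, KO 1 and RE 2, and Ddit3 is filled in RE and KO and not in WT.

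Ddit3 had a called rhythm in RE (0.46 ± 0.10, peak 1.17, adjusted p = 0.0028) and KO (0.49 ± 0.10, peak 6.18, adjusted p = 0.00226) and ranged 0.22 ± 0.10 in WT (adjusted p = 0.197; SE, edgeR). With the set as a term, the KO call was made as well (0.65, adjusted p = 0.00554), while the RE calls of Ddit3 (0.35, 0.0811) and Calr (0.37, 0.122) were lost. Rhythms differed between genotypes for 0 of 10 genes in each pair by edgeR, DESeq2 and limma, beside 0.027% of all genes for RE minus WT, 1.34% for KO minus WT and 0% for RE minus KO. At an unadjusted p under 0.05 edgeR gave 2, 2 and 1 genes. The larger count in WT is therefore no shown difference from RE or KO. Hsp90b1 came nearest, with a difference of 0.44 ± 0.15 for RE against WT and 0.55 ± 0.15 for KO against WT (SE, edgeR adjusted p = 0.532 and 0.0861). It passed for KO against WT without the 5 libraries that stood apart (0.63, adjusted p = 0.00917), without KO replicate 1 of time point 3 (0.61, 0.0305) and without KO replicate 1 of time point 5 (0.59, 0.0273).

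A test of any change among the 6 time points, with no assumed shape, called 4 of 10 genes in RE, 4 in KO and 9 in WT, beside 18.6%, 9.35% and 44.4% of all genes. Among time points of the same set only, it called 1 in RE (Dnajb9), 2 in KO (Dnajb9 and Ddit3) and 6 in WT, beside 3.95%, 1.83% and 25.8%. Dnajb9 was called there in all 3 genotypes, with edgeR adjusted p of 0.0464 in RE, 0.0256 in KO and 0.000209 in WT.

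Averaged over the day, the genes differed little between genotypes. RE minus WT gave 0 calls of 10 beside 0.691% of all genes, with 0 at an unadjusted p under 0.05 by edgeR, DESeq2 and limma. RE minus KO gave 0 calls beside 12.2%, with 3 genes under an unadjusted 0.05 by edgeR, 2 by DESeq2 and 0 by limma. KO minus WT gave 2 calls beside 20.3%, a share near that of all genes. Pdia4 was higher in KO by 0.14 ± 0.05 and Ddit3 differed by -0.14 ± 0.05 (log2, SE, edgeR adjusted p = 0.0449 and 0.0493). Over the time points of the same set, 0 were called beside 15.4%, with Pdia4 at 0.08 (adjusted p = 0.352) and Ddit3 at -0.13 (0.0871). Both calls lie at the threshold: leaving out 1 library moved the count by over 1.5 times in 58 of 72 cases, within 0 to 3 calls, and Pdia4 was at 0.10 (0.114) without KO replicate 1 of time point 5. Without the 5 libraries that stood apart, 3 genes were called, Hsp90b1 (0.16, adjusted p = 0.00868), Xbp1 (0.14, 0.0273) and Pdia4.

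At single time points no gene was called by edgeR, DESeq2 or limma. RE minus WT gave 0 of 50 values, beside 0.0054%, 0.124%, 0%, 0.0054% and 0.0054% of all genes at time points 1, 2, 3, 5 and 6. KO minus WT gave 0 of 50, beside 4.82%, 1.04%, 0.432%, 2.5% and 0.789%. RE minus KO gave 0 of 60, beside 0.0972%, 0.573%, 0.0324%, 1.9%, 1.92% and 0.508% at time points 1 to 6. At an unadjusted p under 0.05 edgeR gave 4, 8 and 7 values. The smallest p was that of Pdia6 at time point 6, with -0.40 ± 0.11 for RE minus WT (SE, edgeR adjusted p = 0.426) and -0.32 ± 0.11 for KO minus WT (0.174). Without KO replicate 1 of time point 5, 1 value was called in RE minus KO, Pdia4 at time point 4.

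Xbp1 (ENSMUSG00000020484, chromosome 11, 5520659 to 5525893, plus strand), the target of IRE1, ranged 0.18 ± 0.14 in RE, 0.08 ± 0.14 in KO and 0.45 ± 0.14 in WT (SE, edgeR adjusted p = 0.661, 0.961 and 0.0391). Its highest values were 223 CPM in RE replicate 3 of time point 5, against 106 to 127 CPM in the other 3 mice, and 236 CPM in WT replicate 4 of time point 5, against 96.5 to 111 CPM. These are the libraries low in Krt14, with basal marker sums of 2322 and 2613 CPM and suprabasal sums of 46209 and 38525 CPM, against 11812 to 23562 CPM elsewhere. The part of these markers in Xbp1 was not tested. Without the 5 libraries that stood apart, the WT range of Xbp1 was 0.35 (adjusted p = 0.0117), while leaving out single libraries lost the call in 10 cases, with an adjusted p of up to 0.0588. In KO minus WT the rhythm difference of Xbp1 was 0.38 (edgeR adjusted p = 0.603), and once the 5 libraries were left out and the model held the set it was 0.53 (0.0472).

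Atf4 (ENSMUSG00000042406, chromosome 15, 80255184 to 80257541, plus strand), the transcription factor of the integrated stress response, had no call in any comparison of genotypes or times. Its means lay between 489 and 531 CPM in RE, 462 and 580 CPM in KO, and 451 and 548 CPM in WT. Without the 5 libraries that stood apart they lay between 489 and 531 CPM in RE, 450 and 580 CPM in KO, and 451 and 535 CPM in WT. It ranged 0.06 ± 0.13 in RE, 0.36 ± 0.13 in KO and 0.16 ± 0.13 in WT (SE, edgeR adjusted p = 0.938, 0.15 and 0.549). ATF4 protein depends on translation, which these counts do not show.

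One mouse, KO replicate 1 of time point 5, was high for the folding genes. It is not among the 5 libraries that stood apart, and the check of single libraries at the end flagged none of its values. It had the highest level of all 72 libraries for Hsp90b1 (740 CPM, against 398 to 499 CPM in its group), Calr (443 against 264 to 339 CPM), Sdf2l1 (2.43 times the mean of the other 3, which lay at 5.12 to 9.43 CPM), Pdia4 (183 against 85.6 to 111 CPM) and Pdia6 (264 against 148 to 184 CPM). Hspa5 stood at 980 CPM, rank 5 of 72. Outside the folding genes, Xbp1 was also above its group, at 153 CPM against 100 to 116 CPM (rank 4 of 72). Ddit3 was at 22.3 CPM against 18.3 to 20.9 CPM. Dnajb9 (48.4 CPM) and Atf4 (445 CPM) lay below the other 3 mice, which had 49.8 to 54.7 CPM and 577 to 674 CPM.

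**Figure D4:**
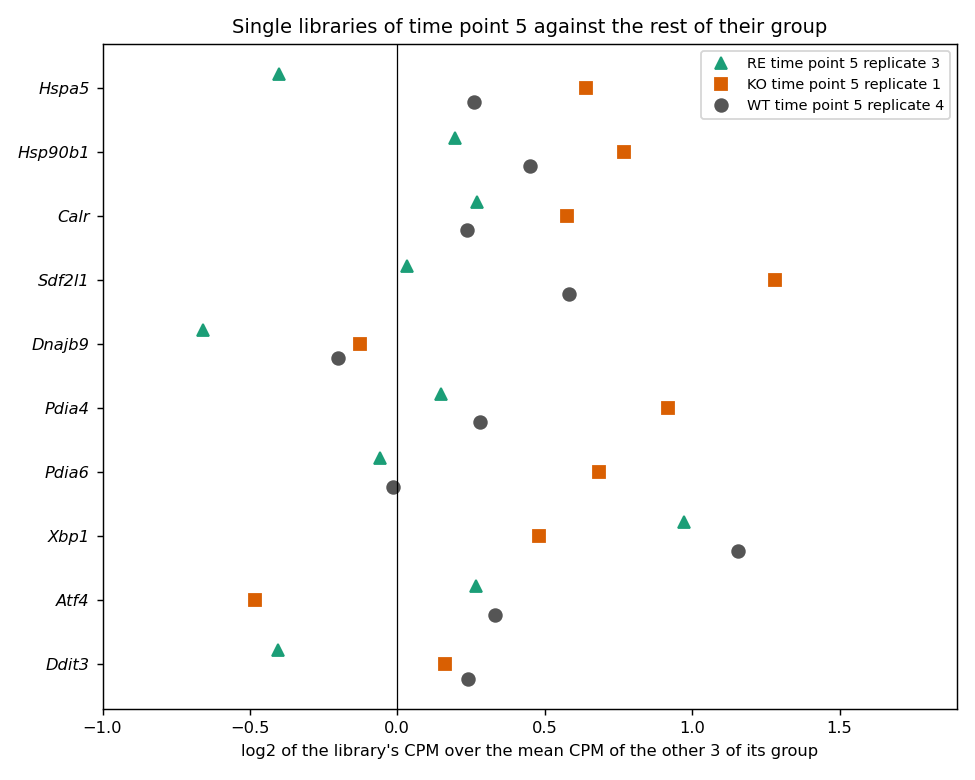
Log2 ratio of 1 library's CPM to the mean CPM of the other 3 mice of its group (horizontal axis) for the 10 genes, in RE replicate 3 (triangles), KO replicate 1 (squares) and WT replicate 4 (circles) of time point 5. KO replicate 1 of time point 5 lies above its group for the 5 chaperones and isomerases named in the text, at 2.43 times the mean of the others for Sdf2l1, and the libraries low in Krt14 lie above theirs for Xbp1.

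Of 89 other genes of the pathway, 87 were tested. In time point 1 against 2 and 3, 7 were higher and 2 lower in RE (8.05% and 2.30%, beside 4.85% and 1.36% of all genes). In KO 5 were higher and 2 lower (5.75% and 2.30%, beside 3.27% and 1.95%), and in WT 23 and 6 (26.4% and 6.90%, beside 13.8% and 11.7%). Of the 27 ATF4 and CHOP targets among them, 4 were higher in RE, 3 in KO and 12 in WT, and 0 lower, beside the shares of all genes just given. After Sesn2 the smallest p in RE belonged to Tnfrsf10b, a death receptor (0.49, adjusted p = 0.00578), and Chac1, which degrades glutathione (1.01, 0.017). In WT they belonged to Ube2j1, a ubiquitin-conjugating enzyme of the ER (0.89, 4.12e-06), and Sec24d, a coat protein of ER export (0.55, 7.68e-06). In KO they were lower, for Eif2ak2, the kinase PKR (-0.40, 0.00249), and Ufd1, of ER-associated degradation (-0.23, 0.00505; log2, edgeR).

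A daily rhythm was called for 14 of the 87 in RE, 9 in KO and 38 in WT. These are 16.1%, 10.3% and 43.7%, beside 13.5%, 7.7% and 34.2% of all genes, so the shares in RE and KO are near the background. Eif2s1, which encodes eIF2alpha, ranged 0.87 ± 0.11 in RE, 0.87 ± 0.11 in KO and 0.76 ± 0.11 in WT with peaks at 2.0, 2.1 and 2.29 on the scale of time points (SE, edgeR adjusted p = 1.44e-08, 9.71e-09 and 9.79e-07). Spcs2, of the signal peptidase, ranged 0.86 in RE, 0.99 in KO and 0.81 in WT, with peaks at 1.96, 2.0 and 2.5. Both genes peaked among the time points of the first set in each genotype. A rhythm and a change between the sets therefore cannot be told apart for them. Of the 4 listed genes of eIF2alpha control, which include Eif2s1, 0 changed among time points of the same set in RE, 0 in KO and 1 in WT. For the mean over the day, 0 of 87 differed in RE minus WT, 20 in KO minus WT (13 higher, 7 lower) and 5 in RE minus KO (1 higher, 4 lower). These are 0%, 23.0% and 5.75%, beside 0.691%, 20.3% and 12.2% of all genes, so the shares are near or below the background. Psat1, of serine synthesis, differed by 0.25 ± 0.05 in KO minus WT and by -0.24 ± 0.05 in RE minus KO (SE, edgeR adjusted p = 8.13e-05 and 0.000254).

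Across the 18 group means, as a description, Hspa5 had r = 0.79 with Dnajb9, 0.83 with Ddit3 and 0.80 with Calr. Hsp90b1 had r = 0.91 with Pdia6, 0.88 with Pdia4, 0.82 with Sdf2l1 and -0.09 with Dnajb9. These points share libraries, depth and the set. Among 10131 genes with a mean of at least 5 CPM, the pattern of Hspa5 was most like that of Ube2s (r = 0.94), Atp2a2 (0.92), Slc5a3 (0.91), Serp1 (0.90) and Duox1 (0.89). Xbp1 was most like Wwc1 (0.92) and Saraf (0.91), Ddit3 like Tnfrsf1b (0.89) and Chka (0.87), and Atf4 like Insig1 (0.70) and Ranbp9 (0.69).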

How the data were processed

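RNA-seq was done on 72 libraries, 24 each of RE, KO and WT, from 4 mice at each of 6 time points. The deposited files hold raw read counts per gene, which the authors made with Trimmomatic, TopHat2 2.1.1 and HTSeq on GRCm38 (mm10), per the submitters' processing notes. Whether counting used strand is not given in the sources used here. Library sizes leave out reads in no gene (12.8% to 20.0%) and ambiguous reads (1.16% to 2.60%).

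Counts were filtered with filterByExpr, scaled by TMM and tested with edgeR 4.0.16 (quasi-likelihood) in R 4.3.3. One model held a mean, cosine and sine for each genotype, with a period of 6 time points, and another held the 18 group means. P-values were adjusted by Benjamini-Hochberg over all 18515 genes, with a threshold of 0.05. In the model of group means they rest on the spread between mice. In the cosine model that spread also holds the misfit of the time points to a cosine. CPM uses TMM-scaled library sizes. DESeq2 1.42.0, limma 3.58.1, other filters and scalings, the set as a term, a replicate block and leaving out each library were alternatives. The code was tested on simulated data. The closest of 108 pairs of libraries within groups differed by 13.77 times the sampling variance, so no library was counted as a copy. Gene positions are from GENCODE M21 and promoters from RefSeq.

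The members and lists were chosen with earlier results of these data known. The text names all 10 members, the other pathway genes with the 3 smallest p in a comparison, and the genes most like Hspa5, Xbp1, Atf4 and Ddit3 by Pearson r.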

Additional observations from a re-analysis of the deposited data

Results flagged for a closer look

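In 8 of the 180 groups of 4 libraries, 1 for each gene, genotype and time point, a single library lay far from the other 3, by the ratio of its gap to the whole range of the group. Chance flags about 1 in 20 groups, or 9 here. Hspa5 had 614 CPM in RE replicate 1 of time point 6, against 543 to 553 CPM in the other 3. Calr had 302 CPM in KO replicate 1 of time point 2, against 351 to 360 CPM. Sdf2l1 had 4.41 CPM in the library labelled RE replicate 2 of time point 3, against 6.94 to 7.23 CPM, and 8.10 CPM in WT replicate 4 of time point 2, against 5.08 to 5.48 CPM. Xbp1 had 236 CPM in WT replicate 4 of time point 5, a library low in Krt14, against 96.5 to 111 CPM. Atf4 had 593 CPM in KO replicate 3 of time point 2, against 420 to 440 CPM, and 636 CPM in WT replicate 3 of time point 2, against 366 to 412 CPM. Ddit3 had 17.5 CPM in the library labelled KO replicate 1 of time point 3, against 14.9 to 15.4 CPM.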

How the results depend on the processing

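Of 1227 alternative values for 15 counts of members, 1135 stayed within 1.5 times the count given and 92 moved. Most of these alternatives left out 1 of the 72 libraries, often of a genotype outside the count, so many counts had little room to move. For single members no called mean difference or time point 1 difference changed sign. Counts and fitted ranges have no sign that could reverse. With the set as a term, the daily rhythm was called for 0 members in RE, 3 in KO and 5 in WT, and with the 5 doubtful libraries also left out for 0, 3 and 6. A test of any change gave 4 in RE and 4 in KO, and within sets 1 and 2. A fit of only the genotypes compared gave 2 rhythms in KO and 1 rise at time point 1 in RE. The mean KO minus WT gave 0 calls with limma, no filter, the set as a term or time points in the same set, and 1 with only the genotypes compared, a stricter filter, or the set as a term without the 5 libraries (Xbp1). The rhythm difference KO minus WT gave 1 call without the 5 libraries (Hsp90b1), and 1 with the set as a term as well (Xbp1). The cause was not tested. Leaving out each library gave 0 to 4 rises at time point 1 in RE, 1 to 4 in KO and 3 to 5 in WT. It gave 1 to 2 rhythms in RE, 1 to 2 in KO and 6 to 8 in WT, 0 to 3 mean differences and 0 to 1 rhythm differences KO minus WT, and 0 to 1 calls at single time points RE minus KO. The labels do not say what same-numbered libraries share. Their deviations from the group means correlated with a median of 0.26 in RE and WT, 0.0969 in KO and WT and 0.0699 in RE and KO, over 0.1 in 17, 12 and 9 of 24 pairs, within -0.85 to 0.79. For Hspa5, replicate 4 was lowest at time point 1 and replicate 3 highest at time point 2 (723, 705 and 647 CPM in RE, KO and WT). For Pdia4, replicate 4 was lowest at time point 1 in 0 genotypes. As not every pair was over 0.1, the number was not taken as a pairing, and the models treat the mice as independent. Where same-numbered mice of a time point share something, the 3 genotypes are not independent of each other. The replicate block gave 2 rhythms in RE, 1 in KO and 7 in WT, 2 mean differences KO minus WT, and 4, 3 and 5 rises at time point 1 in RE, KO and WT, the counts without it. The block gives a replicate number the same effect at every time point. It cannot take up what mice share within a single time point, so these counts do not decide that question. Depth limits Sdf2l1 most, with counts as low as 159 reads.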
